A study of Homo sapiens with 18 samples.

Results

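The genes described here are 43 genes of the ATF4 programme: 10 stress effectors with ATF4 itself, 10 enzymes of amino acid and one-carbon metabolism, 9 amino acid transporters, 12 genes that charge or export tRNA and 2 secreted factors. They were taken as the rows of the deposited count table whose Ensembl identifier carries their symbol, out of 61806 genes, and 42 of the 43 passed the filter on low counts, as did 19743 genes in all. FGF21 was the member that did not pass. The libraries came from HepG2, an established human hepatoma line with a wild-type genotype, and from APOA4-KO, a line made from HepG2 by CRISPR-Cas9 editing of APOA4. Each line was sampled at 0 h without treatment in 21% oxygen, and after 24 h and 48 h in 1% oxygen, with 3 libraries in each of the 6 groups and 18 in all. APOA4-KO was grown from single colonies and compared as a single line, so the edit and other differences between the cell lines cannot be told apart. No cells were kept in 21% oxygen for 24 h or 48 h, and hypoxia and time in culture cannot be told apart either. The study's methods speak of independent experiments without saying whether the sequenced libraries are meant, and the p-values measure the spread between these libraries.

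ATF4 is a transcription factor whose protein level is set largely by how its mRNA is translated. When amino acids run short, the endoplasmic reticulum is stressed or oxygen falls, kinases phosphorylate the initiation factor eIF2, bulk translation slows and ATF4 mRNA is translated more. ATF4 then binds C/EBP-ATF response elements, often as a dimer with C/EBP proteins, and switches on genes that import amino acids, synthesise serine, glycine, asparagine, proline and cysteine, and charge tRNA. Liver cells are large users of amino acids, and the programme includes hormones that the liver secretes under stress. The level of ATF4 mRNA therefore does not give the activity of the protein, which was not measured in these files.

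The core of the C/EBP-ATF response element was searched as TGATGNAA and, on the other strand, as TTNCATCA. The search covered the promoter, taken as the 300 bases from 250 before to 50 after each start site (RefSeq, GRCh38.p14). Of the 43 members, 35 had such a promoter, and 15 of these 35 (42.9%) held the letters, against 1217 of 27305 genes (4.46%). Counted by start sites, the letters stood in 15 of 53 (28.3%) for the members and in 1270 of 35116 (3.62%) for all genes. The members were grouped by what is known of ATF4, and known target genes are among them, so the share describes the list. A match is a description of the letters and not a bound site, and a promoter without a match says nothing of the factor. The windows of 7 genes are shown because they cover the different roles, with the matched letters in capitals and each read 5′ to 3′ on the strand of its gene. Positions count from the start site. The window of asparagine synthetase is chr7:97872413-97872532 on the minus strand, matched letters at -68 to -61. That of the glutamine transporter SLC1A5 is chr19:46784848-46784967 on the minus strand, matched letters at -97 to -90, and that of CEBPG, a dimer partner of ATF4, is chr19:33374015-33374112 on the plus strand, matched letters at -42 to -35. The alanyl-tRNA synthetase window is chr16:70289630-70289749 on the minus strand, matched letters at -187 to -180, and the glycyl-tRNA synthetase window is chr7:30594789-30594877 on the plus strand, matched letters at -33 to -26. CHAC1, which breaks down glutathione, has its window at chr15:40953221-40953325 on the plus strand, matched letters at -209 to -202, and the hormone FGF21 has its window at chr19:48755414-48755523 on the plus strand, matched letters at -54 to -47.
ASNS: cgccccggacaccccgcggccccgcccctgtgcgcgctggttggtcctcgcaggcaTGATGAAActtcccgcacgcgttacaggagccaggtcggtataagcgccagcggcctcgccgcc
SLC1A5: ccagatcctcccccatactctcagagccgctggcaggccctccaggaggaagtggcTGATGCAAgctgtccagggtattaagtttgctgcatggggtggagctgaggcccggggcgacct
CEBPG: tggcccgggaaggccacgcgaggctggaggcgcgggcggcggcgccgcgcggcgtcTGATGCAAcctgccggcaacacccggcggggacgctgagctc
AARS1: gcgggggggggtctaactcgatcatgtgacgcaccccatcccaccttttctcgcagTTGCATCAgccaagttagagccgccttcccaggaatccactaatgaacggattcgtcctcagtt
GARS1: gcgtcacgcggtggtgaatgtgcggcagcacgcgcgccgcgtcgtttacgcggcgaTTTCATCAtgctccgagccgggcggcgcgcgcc
CHAC1: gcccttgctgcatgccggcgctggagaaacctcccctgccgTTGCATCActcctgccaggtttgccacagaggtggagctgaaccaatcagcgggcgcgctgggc
FGF21: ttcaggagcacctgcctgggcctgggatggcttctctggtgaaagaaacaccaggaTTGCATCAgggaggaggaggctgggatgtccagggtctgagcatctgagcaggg

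Libraries held 76481820 to 91604947 counts each. Counts of the edited gene APOA4 remained in APOA4-KO, at 607, 662 and 702 at 0 h, beside 702, 755 and 799 in HepG2. At 24 h they were 585 to 696 beside 1522 to 1763, and at 48 h 551 to 648 beside 1673 to 1968. In these counts, not scaled to the library totals, the lines were apart in hypoxia and met at 702 at 0 h. The difference at 0 h was not tested. Hepatocyte genes were present in every library at unlike levels, with ALB at 13800 to 19600 CPM, SERPINA1 at 12500 to 18000, APOB at 8250 to 19100 and APOA1 at 4380 to 6650, but the factor HNF4A at 280 to 392, and TTR at 41.2 to 174 CPM. AFP, the fetal albumin relative, spanned 128 to 1540 CPM and was higher in APOA4-KO at each time point, by 2.71 to 3.00 on the log2 scale. TTR was higher in APOA4-KO too, with 132 to 141 beside 49.9 to 50.8 CPM at 0 h. It had 152 to 174 beside 64.2 to 71.3 at 24 h, and 130 to 148 beside 41.2 to 43.2 at 48 h. APOB had 18700 to 19100 beside 8770 to 9360 CPM at 24 h. At an adjusted p under 0.05, 5 of these 7 genes were higher and 2 lower at 0 h. The same held at 24 h, and 6 and 1 were so at 48 h. All tested genes had 12.9% and 17.6%, then 23.6% and 24.6%, then 23.5% and 27.3%. The summed level of 8 markers of leukocytes, fibroblasts and endothelium lay between 43.9 and 69.4 CPM, with CD3E and COL3A1 at 0 in some libraries and PDGFRB at 26.5 to 51.6 CPM. By group this sum spanned 43.9 to 45.8 CPM in HepG2 and 55.1 to 60.7 CPM in APOA4-KO at 0 h, 67.7 to 69.4 and 63.2 to 66.4 at 24 h, and 54.6 to 56.8 and 59.1 to 66.2 at 48 h, and its part in the results was not tested. At 0 h, COL1A1 was at 3.05 to 3.91 CPM in APOA4-KO beside 0.75 to 1.29 in HepG2. CDH5 was at 1.19 to 2.07 beside 0 to 0.53 CPM. Of the 8 markers, 4 were higher and 0 lower in APOA4-KO at 0 h, against 12.9% and 17.6% of all tested genes. Since these are bulk samples of cultured lines, fewer cells that express a gene and less RNA per cell cannot be told apart.

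Levels per gene are given as CPM, the counts of a gene relative to the TMM-scaled total of its library, scaled to a total of 1000000. Differences are log2 fold changes from an edgeR quasi-likelihood fit over all 18 libraries, with a standard error (SE) and a p adjusted over 19743 genes. A gene was called higher or lower at an adjusted p under 0.05. Per length, on the deposited FPKM scale, PYCR1 had the highest level of the members in HepG2 at 0 h, with 191.77, 193.19 and 190.72, and ATF4 was at 135.87, 134.97 and 138.79. At the low end, CHAC1 was at 0.34, 0.26 and 0.24 FPKM, and FGF21 had no count at 0 h.

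Between the lines, the module had lower values in APOA4-KO before hypoxia and after 24 h, and more higher than lower values after 48 h. At 0 h, 4 of the 42 tested members were higher in APOA4-KO and 20 were lower, where 12.9% of all tested genes were higher and 17.6% lower. At 24 h, 9 members were higher and 26 lower, against 23.6% and 24.6% of all genes. By 48 h, 22 members were higher and 13 lower, against 23.5% and 27.3%, and with libraries scaled by their size alone the split was 20 and 18. The median log2 fold change of the members was -0.10 before hypoxia, -0.39 after 24 h and 0.29 after 48 h, beside -0.01, 0.01 and -0.04 over all tested genes. Under library size alone the member median after 48 h was 0.14, and with limma on FPKM it was 0.08 after 48 h and -0.06 before hypoxia. The 3 comparisons of the lines share no library.

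**Figure D1:**
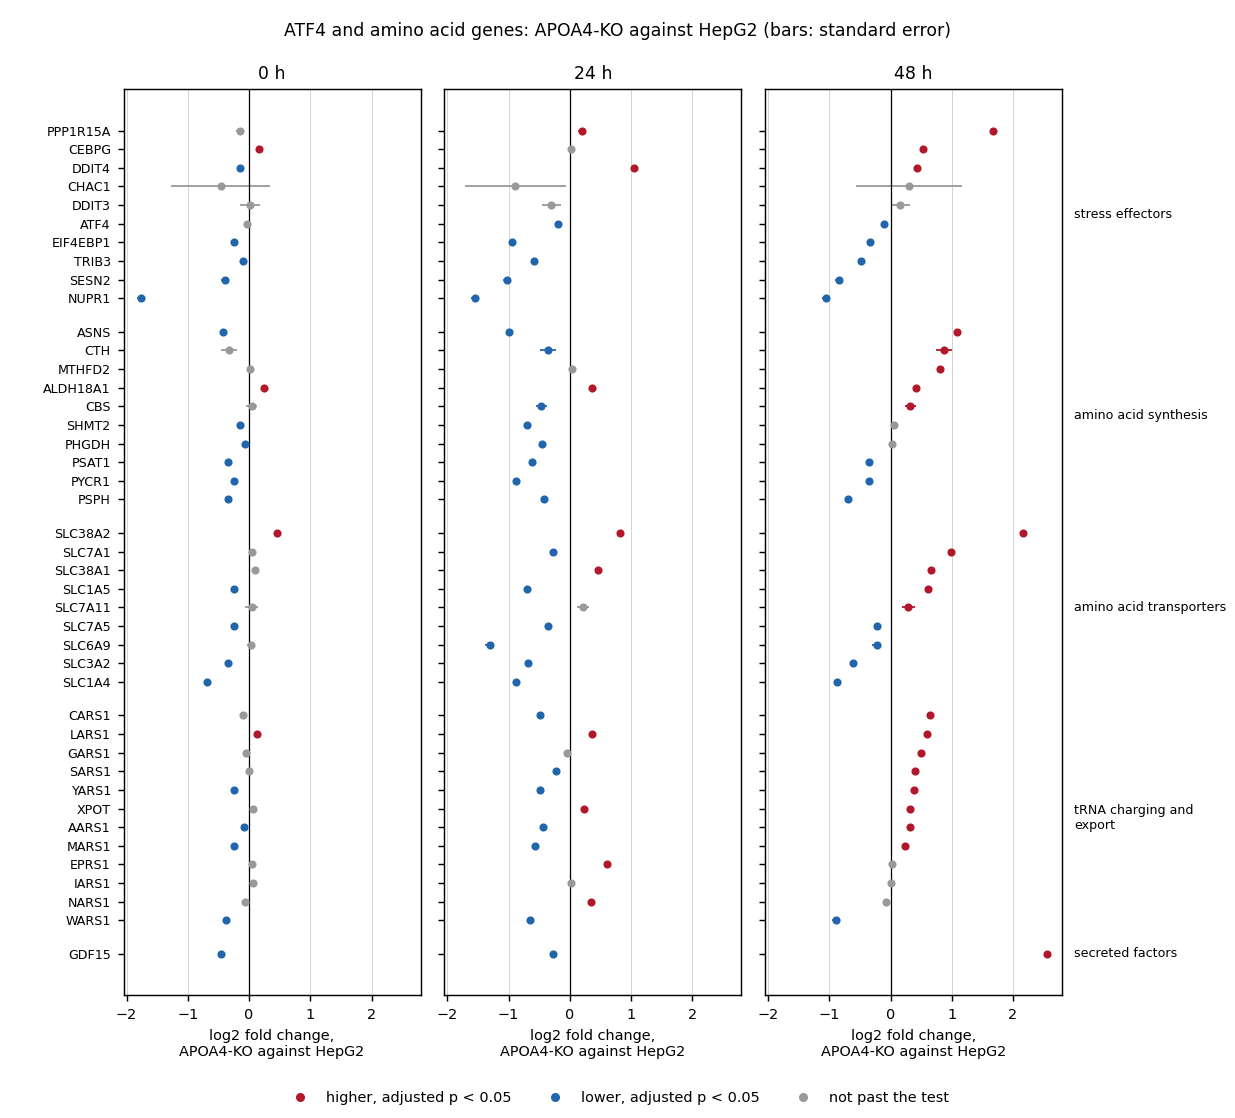
Log2 fold change of APOA4-KO against HepG2 (x axis) for the 42 tested members (rows, by role) at 0 h, 24 h and 48 h; points are estimates, bars are standard errors, and red and blue mark an adjusted p under 0.05. The median of the members is -0.39 at 24 h and 0.29 at 48 h (0.14 at 48 h with library size alone, 0.08 with limma on FPKM).

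The directions changed gene by gene. Lower at 24 h and higher at 48 h were 11 of the 42 members (26.2%), against 801 of 19743 genes (4.06%): ASNS, CTH, CBS, SLC7A1, SLC1A5, AARS1, SARS1, MARS1, YARS1, CARS1 and GDF15. The opposite order, higher at 24 h and lower at 48 h, was seen for 0 members and for 721 of all tested genes (3.65%). Another 11 members were lower in APOA4-KO at all 3 times (9.66% of all genes), namely TRIB3, SESN2, EIF4EBP1, NUPR1, PSAT1, PSPH, PYCR1, SLC7A5, SLC3A2, SLC1A4 and WARS1. ALDH18A1, SLC38A2 and LARS1 were higher at all 3 times, 7.14% of the members beside 6.72% of all genes. DDIT3, CHAC1 and IARS1 passed the test at no time point. These patterns were counted with TMM scaling alone, for the members and for all genes, and were not counted again under another scaling.

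With a limit of at least 2-fold added, 1 member differed between the lines at 0 h (4.31% of all genes), 4 at 24 h (7.77%) and 5 at 48 h (13.6%). These were NUPR1 at 0 h, SESN2, DDIT4, NUPR1 and SLC6A9 at 24 h, and PPP1R15A, NUPR1, ASNS, SLC38A2 and GDF15 at 48 h. The remaining calls were smaller than 2-fold.

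Among the stress effectors, the mRNA of ATF4 itself moved little between the lines and fell with time in both. In HepG2, ATF4 measured 355, 353 and 364 CPM before hypoxia, then 333, 340 and 339 after 24 h and 243, 252 and 252 after 48 h. In APOA4-KO it measured 354, 347 and 339 CPM, then 288, 300 and 293 and then 231, 229 and 233 at the same times. The libraries of the lines overlapped at 0 h and were apart at 24 h and 48 h. The difference between the lines was -0.04 at 0 h (SE 0.02, adjusted p = 0.177), -0.20 at 24 h (SE 0.02, adjusted p = 4.3e-07) and -0.11 at 48 h (SE 0.02, adjusted p = 5.2e-04), all on the log2 scale. From 0 h to 48 h ATF4 fell by 0.52 in HepG2 and by 0.59 in APOA4-KO, and the difference between these changes, -0.06 (SE 0.03), did not pass the test (adjusted p = 0.133).

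DDIT3, which encodes the stress factor CHOP, stayed near the low end in all libraries. DDIT3 measured 3.55, 3.34 and 4.37 CPM in HepG2 before hypoxia, 4.52, 3.93 and 5.25 after 24 h and 3.97, 3.2 and 3.16 after 48 h, while APOA4-KO had 4.33, 4.02 and 3.1 CPM, then 3.38, 4.1 and 3.61 and then 4, 3.94 and 3.63 in the same order. The libraries of the lines overlapped at all 3 times, and the log2 differences were 0.02, -0.30 and 0.16, each with an SE of 0.16. MARS1 and MBD6 on the opposite strand cover part of its exons (39.6% of exon bases overlap other genes), and the counting is not stated to use strand, so its reads are uncertain. CHAC1 was close to the limit of detection. CHAC1 measured 0.712, 0.532 and 0.518 CPM in HepG2 before hypoxia, 0.364, 0.551 and 0.254 after 24 h and 0, 0.0593 and 0.276 after 48 h, while APOA4-KO had 0.252, 0.5 and 0.529 CPM, then 0.273, 0.231 and 0.123 and then 0.111, 0.0527 and 0.25 in the same order. In counts this was 60, 44 and 43 in HepG2 at 0 h and 0, 5 and 25 at 48 h, where the replicates differed widely. Its fall from 0 h to 48 h in HepG2, -2.38 (SE 0.87, adjusted p = 0.049), was kept in 4 of 12 refits, whose values spanned -4.26 to -1.78. It was lost without any single library of HepG2 at 0 h or without replicate 1 or 2 at 48 h, and also with library size alone, with no filter on low counts and with only these groups fitted. Without replicate 3 at 48 h it was -4.26.

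TRIB3, a pseudokinase that restrains ATF4 and AKT, was lower in APOA4-KO throughout. HepG2 libraries held 295, 282 and 286 CPM of TRIB3 before hypoxia, 260, 268 and 263 after 24 h and 255, 259 and 270 after 48 h. APOA4-KO libraries held 271, 279 and 258 CPM before hypoxia, 180, 173 and 177 after 24 h and 182, 189 and 188 after 48 h. The libraries of the lines did not overlap at any time point, and at 24 h and 48 h the log2 difference was -0.58 (SE 0.03, adjusted p = 1.0e-11) and -0.49 (SE 0.03, adjusted p = 8.0e-11). SESN2, a leucine sensor that holds back mTORC1, showed a wider gap. For SESN2, HepG2 gave 57.4, 57.6 and 55.9 CPM at the start, 48.9, 44.9 and 46.7 after 24 h and 40.4, 38.2 and 37.2 after 48 h. The edited line gave 48.6, 40.1 and 42.2 CPM at the start, 23.7, 22.9 and 22.2 after 24 h and 22.5, 20.5 and 21.2 after 48 h. Every APOA4-KO library was below every HepG2 library of its time point. The log2 difference was -0.39 at 0 h (SE 0.06), -1.03 at 24 h (SE 0.06, adjusted p = 5.5e-11) and -0.85 at 48 h (SE 0.06, adjusted p = 7.0e-10).

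DDIT4, another inhibitor of mTORC1 and also a known target of hypoxia-inducible factors, rose in both lines but at different times. In HepG2, DDIT4 measured 63.4, 65.1 and 67.9 CPM before hypoxia, then 67.4, 68.4 and 66.4 after 24 h and 117, 121 and 117 after 48 h. In APOA4-KO it measured 62.4, 56.1 and 58.8 CPM, then 130, 143 and 145 and then 164, 159 and 155 at the same times. HepG2 did not pass the test at 24 h (log2 change 0.04, adjusted p = 0.565), while APOA4-KO rose by 1.24 (SE 0.04, adjusted p = 5.3e-14). At 48 h, both lines were above their 0 h level, by 0.85 in HepG2 and by 1.43 in APOA4-KO. DDIT4 was 2.07-fold higher in APOA4-KO at 24 h and 1.35-fold at 48 h.

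PPP1R15A encodes GADD34, the phosphatase subunit that removes the phosphate from eIF2 and restores translation. HepG2 libraries held 22.7, 19.2 and 22.9 CPM of PPP1R15A before hypoxia, 28.4, 28.9 and 26.8 after 24 h and 23.3, 24.4 and 24.2 after 48 h. APOA4-KO libraries held 19.6, 18.5 and 20.2 CPM before hypoxia, 32.6, 31.3 and 32.6 after 24 h and 74.8, 78.9 and 76.3 after 48 h. The libraries of the lines overlapped at 0 h, were apart by a small step at 24 h, and stood far apart at 48 h. APOA4-KO was 3.2-fold higher at 48 h (log2 1.68, SE 0.06, adjusted p = 1.8e-14). CEBPG, whose promoter window is shown above, had a small difference. CEBPG measured 25.4, 23.1 and 25 CPM in HepG2 before hypoxia, 29.3, 29.9 and 29.7 after 24 h and 23.7, 25 and 25.5 after 48 h, while APOA4-KO had 27, 28.4 and 27.1 CPM, then 28.8, 30.2 and 31.4 and then 33.3, 35.6 and 37.9 in the same order. It was higher in APOA4-KO at 0 h by 0.17 (SE 0.05, adjusted p = 0.023) and at 48 h by 0.53 (SE 0.05, adjusted p = 8.9e-08), and the libraries overlapped at 24 h.

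NUPR1, a small stress-induced chromatin protein, carried the largest negative difference of the members at each time point. For NUPR1, HepG2 gave 90.7, 87.8 and 86.3 CPM at the start, 32, 36.1 and 30.9 after 24 h and 52.9, 51.7 and 52.2 after 48 h. The edited line gave 27, 25.2 and 25.7 CPM at the start, 11.6, 10.8 and 11.5 after 24 h and 26.9, 25.5 and 22.9 after 48 h. No library of APOA4-KO reached a HepG2 library of its time point. The log2 difference was -1.77 at 0 h (SE 0.06, adjusted p = 8.3e-14), -1.55 at 24 h (SE 0.06) and -1.06 at 48 h (SE 0.06, adjusted p = 2.0e-11). Both lines fell at 24 h, by 1.42 in HepG2 and by 1.20 in APOA4-KO, and rose again by 48 h, so the gap was there before hypoxia. EIF4EBP1, the repressor of cap-dependent translation, was lower in APOA4-KO by 0.24, 0.94 and 0.33 at the 3 times (log2 differences of -0.24, -0.94 and -0.33), with 33.6 to 36.1 CPM beside 64.2 to 69.9 CPM in HepG2 at 24 h.

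**Figure D2:**
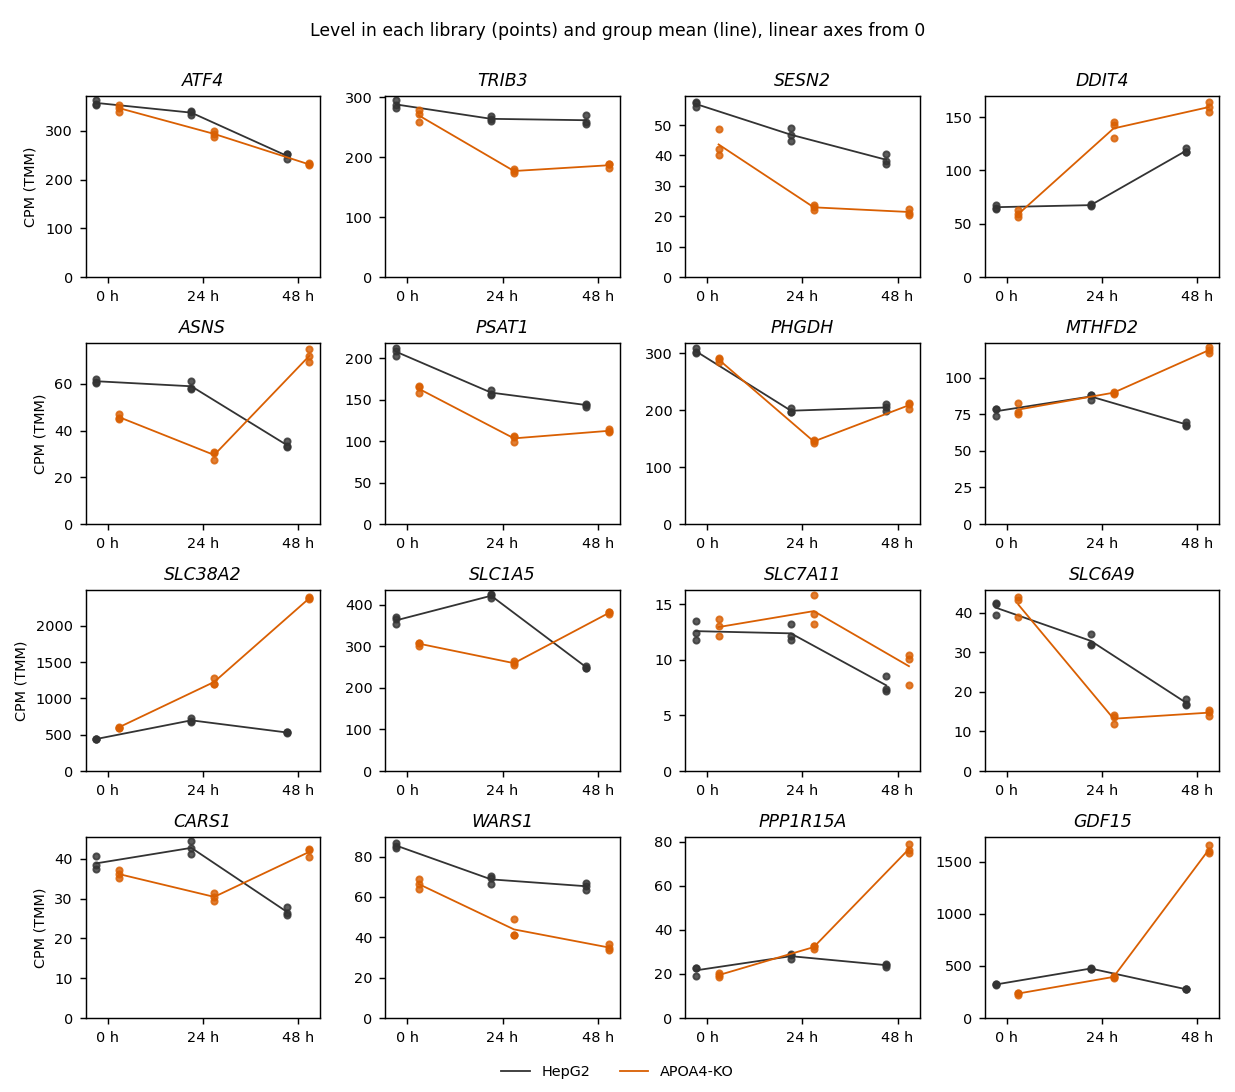
CPM of 16 members (a panel for each, linear y axis from 0) in each library at 0 h, 24 h and 48 h; points are libraries and lines join the group means of HepG2 and APOA4-KO. ASNS, SLC38A2, PPP1R15A and GDF15 part at 48 h, with GDF15 at 1580 to 1660 CPM in APOA4-KO beside 275 to 277 in HepG2.

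Of the 10 enzymes of amino acid synthesis, 1 rose and 5 fell in HepG2 from 0 h to 24 h, against 11.4% and 18.3% of all genes, and 10 fell from 0 h to 48 h, against 14.6%. Against HepG2, APOA4-KO had 1 enzyme higher (10%) and 6 lower (60%) at 0 h, beside 12.9% and 17.6% of all tested genes. After 24 h, 1 was higher (10%) and 8 lower (80%), beside 23.6% and 24.6%. After 48 h, 5 were higher (50%) and 3 lower (30%), beside 23.5% and 27.3%. Asparagine synthetase changed sides. In HepG2, ASNS measured 62.2, 60.9 and 60.4 CPM before hypoxia, then 57.7, 61.2 and 58.1 after 24 h and 35.6, 33.3 and 32.8 after 48 h. In APOA4-KO it measured 47.1, 44.8 and 45.5 CPM, then 30.7, 30.6 and 27.4 and then 71.8, 75 and 69.4 at the same times. APOA4-KO was below every HepG2 library at 24 h and above every HepG2 library at 48 h. The log2 difference was -0.42 before hypoxia (SE 0.05). At 24 h the mean was 29.6 CPM in APOA4-KO beside 59 in HepG2, a difference just under the 2-fold limit (SE 0.05 on the log2 scale, adjusted p = 2.9e-12), and at 48 h APOA4-KO was 2.13-fold higher at 48 h (log2 1.09, SE 0.05, adjusted p = 5.3e-13). Another annotated gene, AC079781.5, overlaps 44.6% of the exon bases of ASNS on the same strand and its count was 22.1% to 31.4% of that of ASNS in HepG2 at 48 h and 6.55% to 9.21% in APOA4-KO, so the split of the reads is uncertain. The sum of both genes was 42.8 to 43.8 CPM in HepG2 at 48 h and 74 to 80.6 CPM in APOA4-KO, and 65.1 to 68.5 and 32.4 to 34.1 CPM at 24 h, with the same order of the lines at both times. This sum was taken after the values were seen.

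The 3 enzymes of serine synthesis were lower in APOA4-KO at 24 h. PHGDH makes the first step of the path. PHGDH measured 309, 300 and 302 CPM in HepG2 before hypoxia, 204, 196 and 197 after 24 h and 210, 205 and 199 after 48 h, while APOA4-KO had 292, 285 and 290 CPM, then 145, 143 and 147 and then 202, 213 and 211 in the same order. The log2 difference was -0.46 at 24 h (SE 0.03, adjusted p = 3.2e-11), and at 48 h the lines overlapped (0.03, SE 0.03, adjusted p = 0.392). PSAT1 makes the next step. PSAT1 measured 202, 212 and 209 CPM in HepG2 before hypoxia, 157, 156 and 162 after 24 h and 141, 144 and 145 after 48 h, while APOA4-KO had 158, 166 and 165 CPM, then 105, 106 and 98.6 and then 111, 114 and 112 in the same order. It was lower in APOA4-KO by 0.35 at 0 h, 0.62 at 24 h and 0.35 at 48 h (log2 differences of -0.35, -0.62 and -0.35, SE 0.03), with no overlap of the libraries. PSPH, the last enzyme, was further down in APOA4-KO at 48 h, with 55.3 to 57.1 CPM beside 90.3 to 91.7 CPM (log2 -0.69, SE 0.04, adjusted p = 2.2e-11).

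In the mitochondrial one-carbon path, SHMT2, which turns serine into glycine, was lower in APOA4-KO at 24 h, with 212, 219 and 219 CPM beside 356, 356 and 344 (log2 -0.70, SE 0.03, adjusted p = 2.5e-12). MTHFD2, the next enzyme, behaved differently. It did not pass the test at 0 h or 24 h and was higher at 48 h, with 121, 119 and 117 CPM beside 67.9, 67.1 and 69.8 (log2 0.80, SE 0.04, adjusted p = 1.0e-12). Exons of other genes overlap 33.2% of its exon bases, and the same holds for 29.7% of PYCR1, 23.8% of SLC1A5, 13.3% of MARS1 and 10.6% of WARS1.

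The enzymes of proline synthesis differed between the lines in opposite directions. ALDH18A1, which makes the precursor of proline, was higher in APOA4-KO at every time. ALDH18A1 measured 375, 357 and 381 CPM in HepG2 before hypoxia, 353, 354 and 356 after 24 h and 342, 339 and 333 after 48 h, while APOA4-KO had 442, 445 and 434 CPM, then 450, 472 and 452 and then 441, 453 and 458 in the same order. Its log2 difference was 0.25 before hypoxia, 0.37 after 24 h and 0.41 after 48 h (SE 0.02 at 24 h and 48 h). PYCR1, the last enzyme of the path, was lower at every time, with 303, 297 and 306 CPM beside 565, 557 and 549 CPM at 24 h (log2 -0.88, SE 0.02, adjusted p = 8.2e-16). At 48 h PYCR1 was still lower, by a log2 difference of -0.35, while ALDH18A1 was higher.

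CTH and CBS make cysteine from homocysteine. CTH was low, with 4.68, 3.35 and 4.25 CPM in HepG2 and 6.93, 8.66 and 6.8 CPM in APOA4-KO at 48 h (log2 0.87, SE 0.13, adjusted p = 1.1e-05). For CBS, the log2 difference was -0.47 at 24 h (SE 0.09, adjusted p = 1.9e-04) and 0.32 at 48 h (SE 0.09, adjusted p = 0.005). CBSL, an annotated copy of CBS on chromosome 21, had 15.6% to 68.2% as many counts as CBS and this share differed between replicates, so CBS alone is uncertain. The sum of CBS and CBSL, taken after the values were seen, varied less: it was 83.1 to 85.7 CPM in HepG2 and 60.4 to 63.7 CPM in APOA4-KO at 24 h, and 72.9 to 77.8 and 109 to 113 CPM at 48 h. The order of the lines was that of CBS at both times.

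Of the 9 transporters, 1 was higher (11.1%) and 4 lower (44.4%) in APOA4-KO at 0 h, against 12.9% and 17.6% of all tested genes. After 24 h, 2 were higher (22.2%) and 6 lower (66.7%), against 23.6% and 24.6%. After 48 h, 5 were higher (55.6%) and 4 lower (44.4%), against 23.5% and 27.3%. SLC38A2, a carrier of glutamine, alanine and other small neutral amino acids that is known to rise on amino acid shortage, was the transporter with the largest positive difference. HepG2 libraries held 437, 441 and 443 CPM of SLC38A2 before hypoxia, 673, 686 and 735 after 24 h and 524, 536 and 533 after 48 h. APOA4-KO libraries held 611, 597 and 599 CPM before hypoxia, 1200, 1280 and 1200 after 24 h and 2380, 2370 and 2390 after 48 h. At 24 h the 3 libraries of APOA4-KO, 1200 to 1280 CPM, were above those of HepG2, 673 to 735 CPM. By 48 h the gap had widened to 4.48-fold (log2 2.16, SE 0.03, adjusted p = 3.0e-20). Its promoter window held no match to the searched letters. The sister carrier SLC38A1 rose less. SLC38A1 measured 65.8, 64.1 and 61 CPM in HepG2 before hypoxia, 74.8, 81.5 and 84.6 after 24 h and 72.3, 75.4 and 74 after 48 h, while APOA4-KO had 65, 68.4 and 69.2 CPM, then 116, 110 and 106 and then 115, 119 and 116 in the same order. It was higher in APOA4-KO by 0.46 at 24 h (SE 0.04) and by 0.66 at 48 h (SE 0.04, adjusted p = 2.9e-10), and overlapped at 0 h.

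The exchangers of small neutral amino acids differed from each other. SLC1A5, the glutamine exchanger ASCT2, was lower in APOA4-KO at 24 h, with 255 to 264 CPM beside 416 to 426, and higher at 48 h, with 377 to 383 CPM beside 247 to 253 (log2 0.61, SE 0.02, adjusted p = 2.3e-14). Its relative SLC1A4, an exchanger of alanine, serine and cysteine, was lower at all times. SLC1A4 measured 201, 200 and 188 CPM in HepG2 before hypoxia, 159, 158 and 156 after 24 h and 140, 133 and 134 after 48 h, while APOA4-KO had 121, 124 and 121 CPM, then 82, 86.5 and 89 and then 70.3, 78.3 and 74.2 in the same order. The differences on the log2 scale were -0.68 before hypoxia, -0.88 after 24 h and -0.87 after 48 h, each with an SE of 0.04, and no libraries overlapped. Both promoters hold the searched letters.

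SLC7A5 and SLC3A2 encode the 2 chains of LAT1, the importer of leucine and other large neutral amino acids. SLC7A5 measured 766, 765 and 765 CPM in HepG2 before hypoxia, 688, 673 and 668 after 24 h and 727, 725 and 719 after 48 h, while APOA4-KO had 659, 649 and 639 CPM, then 535, 510 and 531 and then 601, 618 and 642 in the same order. SLC7A5 was lower in APOA4-KO by 0.24, 0.36 and 0.22 at 0 h, 24 h and 48 h (log2 differences of -0.24, -0.36 and -0.22, SE 0.02). SLC3A2 was lower by more, with -0.34, -0.69 and -0.61. Both chains were therefore lower in APOA4-KO at every time. SLC7A11, the cystine importer, was low. SLC7A11 measured 11.8, 13.5 and 12.4 CPM in HepG2 before hypoxia, 11.8, 12.1 and 13.2 after 24 h and 8.56, 7.22 and 7.33 after 48 h, while APOA4-KO had 13.7, 13 and 12.1 CPM, then 15.8, 13.2 and 14.1 and then 10.1, 7.75 and 10.4 in the same order. The libraries of the lines overlapped at 0 h and 48 h, and SLC7A11 was called higher in APOA4-KO at 48 h by 0.29 (SE 0.11, adjusted p = 0.031), after a fall from 0 h in both lines. SLC7A1, the importer of arginine and lysine, was lower at 24 h by 0.28 and higher at 48 h by 0.99 (log2 -0.28 and 0.99), with 231, 228 and 236 CPM beside 112, 120 and 119 at 48 h.

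SLC6A9, the glycine transporter GLYT1, fell in both lines, and by 24 h further in APOA4-KO. For SLC6A9, HepG2 gave 39.3, 42.1 and 42.4 CPM at the start, 32.1, 31.8 and 34.7 after 24 h and 16.6, 18.2 and 17 after 48 h. The edited line gave 44, 38.9 and 43.1 CPM at the start, 13.6, 11.8 and 14.2 after 24 h and 14.9, 15.4 and 13.9 after 48 h. By 24 h it had fallen by 0.33 in HepG2 (adjusted p = 8.4e-04) and by 1.67 in APOA4-KO (adjusted p = 5.2e-13). At 24 h the lines were apart by -1.31 (SE 0.07, adjusted p = 1.1e-11), and by 48 h HepG2 had come down to 16.6 to 18.2 CPM, beside 13.9 to 15.4 CPM (log2 -0.23, SE 0.07, adjusted p = 0.010). From 0 h to 48 h, SLC6A9 fell by 1.26 in HepG2 and by 1.51 in APOA4-KO.

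Aminoacyl-tRNA synthetases attach amino acids to their tRNA, and XPOT carries mature tRNA out of the nucleus. Of these 12 genes, 1 was higher (8.33%) and 4 lower (33.3%) in APOA4-KO at 0 h, against 12.9% and 17.6% of all tested genes. After 24 h, 4 were higher (33.3%) and 6 lower (50%), against 23.6% and 24.6%. After 48 h, 8 were higher (66.7%) and 1 lower (8.33%), against 23.5% and 27.3%. The alanyl enzyme was lower at 24 h and higher at 48 h. AARS1 measured 252, 251 and 244 CPM in HepG2 before hypoxia, 224, 225 and 225 after 24 h and 177, 175 and 175 after 48 h, while APOA4-KO had 237, 229 and 236 CPM, then 168, 169 and 162 and then 219, 218 and 220 in the same order. Its log2 difference was -0.09 at 0 h (SE 0.02), -0.44 at 24 h (SE 0.02, adjusted p = 6.3e-12) and 0.32 at 48 h (SE 0.02, adjusted p = 4.5e-10). YARS1, CARS1, MARS1 and SARS1 did likewise: at 24 h they were lower by 0.49, 0.49, 0.57 and 0.23 (log2 -0.49, -0.49, -0.57 and -0.23) and at 48 h higher by 0.38, 0.64, 0.24 and 0.40. CARS1, the cysteinyl enzyme, had 29.5 to 31.5 CPM in APOA4-KO beside 41.2 to 44.5 in HepG2 at 24 h, and 40.5 to 42.6 beside 25.8 to 28 at 48 h.

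WARS1, the tryptophanyl enzyme, was the member of this group that was lower at 48 h. WARS1 measured 86.9, 84.3 and 85.4 CPM in HepG2 before hypoxia, 69.2, 66.5 and 70.5 after 24 h and 67.1, 63.6 and 65.3 after 48 h, while APOA4-KO had 64, 66.4 and 68.8 CPM, then 49.1, 41.3 and 41.4 and then 34.7, 36.5 and 33.6 in the same order. The log2 difference was -0.37 at 0 h (SE 0.05), -0.65 at 24 h (SE 0.05) and -0.90 at 48 h (SE 0.06, adjusted p = 7.0e-11), and the libraries did not overlap. LARS1, the leucyl enzyme, went the other way. LARS1 measured 38.7, 42.6 and 42.8 CPM in HepG2 before hypoxia, 47.5, 47.2 and 50.8 after 24 h and 47.6, 50.7 and 46.6 after 48 h, while APOA4-KO had 46.1, 44.3 and 45.8 CPM, then 63.7, 61.4 and 62.3 and then 73.9, 72.2 and 71.9 in the same order. It was higher by 0.13 at 0 h, 0.37 at 24 h and 0.59 at 48 h (SE 0.04). EPRS1, the enzyme for glutamate and proline, differed at 24 h. EPRS1 measured 60.8, 65.2 and 64 CPM in HepG2 before hypoxia, 48.9, 53.6 and 57.1 after 24 h and 66.5, 70.9 and 71.3 after 48 h, while APOA4-KO had 66.6, 67.3 and 62.2 CPM, then 81.6, 83.6 and 77.9 and then 69, 71.8 and 70.7 in the same order. The difference was 0.61 at 24 h (SE 0.05, adjusted p = 7.2e-09) and 0.02 at 48 h (SE 0.05, adjusted p = 0.798).

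Among the remaining genes of this group, GARS1, whose promoter window is shown above, was higher in APOA4-KO at 48 h by 0.49 (SE 0.04, adjusted p = 8.2e-10). NARS1 was higher at 24 h by 0.35, and XPOT at 24 h by 0.23 and at 48 h by 0.32. IARS1, the isoleucyl enzyme, stayed within 142 to 158 CPM over all 18 libraries and passed the test in none of the 11 comparisons made with edgeR at this depth.

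**Figure D3:**
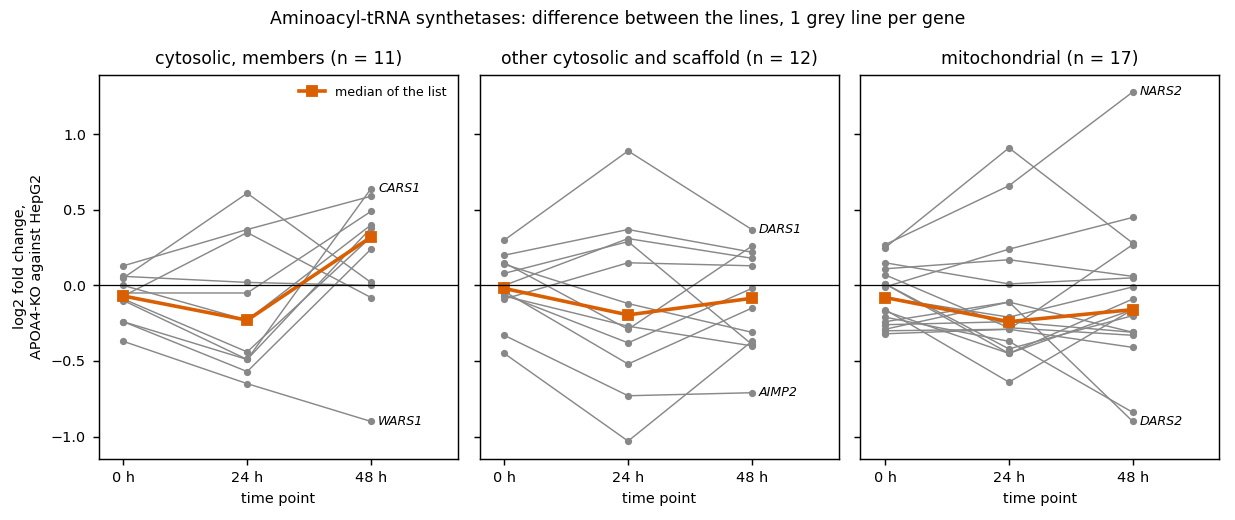
Log2 fold change of APOA4-KO against HepG2 (y axis) by time point (x axis) for 11 synthetases among the members, 12 other cytosolic synthetases and scaffold proteins and 17 mitochondrial synthetases; grey lines are genes and the orange line is the median of each list. At 48 h the members reach from -0.90 (WARS1) to 0.64 (CARS1), and NARS2 is at 1.28 in the mitochondrial list.

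Of the 2 secreted factors, FGF21, a fasting hormone of the liver, had 4 counts in a single library (HepG2 at 24 h) and 0 counts in each of the other 17, where 0 counts allow up to 3 per library. No comparison can be made at this depth. GDF15, a stress hormone that acts on the brain stem to reduce appetite, had the largest positive difference of the members. In HepG2, GDF15 measured 314, 326 and 323 CPM before hypoxia, then 482, 472 and 469 after 24 h and 275, 276 and 277 after 48 h. In APOA4-KO it measured 241, 240 and 224 CPM, then 389, 388 and 405 and then 1580, 1660 and 1600 at the same times. HepG2 rose at 24 h and fell back below its 0 h level by 48 h, whereas APOA4-KO rose at both steps. APOA4-KO was below HepG2 at 0 h (log2 -0.45, SE 0.03) and at 24 h (log2 -0.27, SE 0.03, adjusted p = 7.8e-08), and 5.84-fold above it at 48 h (log2 2.55, SE 0.03, adjusted p = 2.0e-21).

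The changes from 0 h were then taken within each line. In HepG2, 11 members rose and 17 fell by 24 h, against 11.4% and 18.3% of all genes, and 5 rose and 31 fell by 48 h, against 13.1% and 14.6%. From 24 h to 48 h, 6 rose and 27 fell in HepG2, against 18.7% and 11.9% of all genes (9 and 21 with library size alone). The 5 members that rose in HepG2 from 0 h to 48 h were DDIT4, SLC38A1, SLC38A2, LARS1 and NARS1. At the 2-fold limit, NUPR1 fell by 24 h, and CHAC1 and SLC6A9 fell by 48 h.

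In APOA4-KO, more members fell than rose by 24 h, and more rose than fell from 24 h to 48 h. By 24 h, 11 members rose and 23 fell, against 21.5% and 22.8% of all genes, and by 48 h 16 rose and 16 fell, against 23.9% and 25.9% (13 and 21 with library size alone). From 24 h to 48 h, 26 members rose and 6 fell, against 21.9% and 19.4% (21 and 11 with library size alone). In that step 8 of the 10 enzymes of amino acid synthesis rose and 0 fell, among them ASNS by 1.29 (SE 0.05, adjusted p = 2.0e-13), PHGDH by 0.52 and SHMT2 by 0.51. The rise of PSAT1 in this step, 0.13, turned to -0.00 when libraries were scaled by their size alone. GDF15 rose by 2.03 (SE 0.03), PPP1R15A by 1.25 (SE 0.06) and NUPR1 by 1.15 (SE 0.06) in the same step, while ATF4 fell by 0.35 (SE 0.02, adjusted p = 4.3e-10).

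**Figure D4:**
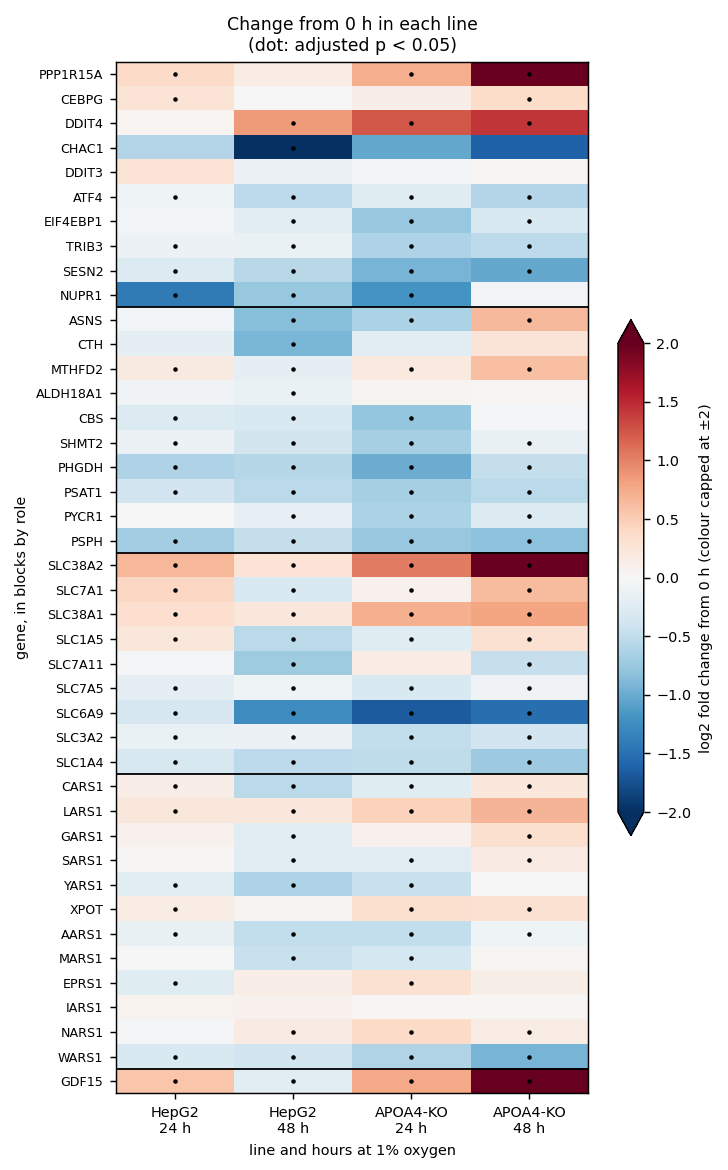
Log2 fold change from 0 h (colour, capped at 2 either way) of the 42 tested members (rows, in blocks by role) in HepG2 and APOA4-KO at 24 h and 48 h (columns); a dot marks an adjusted p under 0.05. The enzymes of amino acid synthesis are blue throughout in HepG2 at 48 h, and GDF15 is at -0.22 in HepG2 and 2.78 in APOA4-KO at 48 h.

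Whether the lines changed by different amounts was tested as the difference between their changes. From 0 h to 24 h, this difference was positive (a more positive change in APOA4-KO) for 10 members and negative for 22, against 16.8% and 15.4% of all genes. To 48 h it was positive for 23 and negative for 8, against 18.6% and 17.8% (19 and 14 with library size alone). Both comparisons use the same 0 h libraries. Of these members, 2 passed 2-fold at 24 h (2.59% of all genes) and 5 at 48 h (7.42%).

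At 24 h the 2 were DDIT4, with 1.19 (SE 0.06, adjusted p = 6.7e-11), and SLC6A9, with -1.34 (SE 0.10, adjusted p = 4.8e-09). At 48 h, GDF15 had a difference of 3.00, from a change of -0.22 in HepG2 and 2.78 in APOA4-KO. PPP1R15A had 1.83 (SE 0.08, adjusted p = 2.6e-12) and SLC38A2 1.71 (SE 0.04, adjusted p = 3.8e-16). For ASNS it was 1.51 (SE 0.07, adjusted p = 2.5e-12), with a fall of 0.85 in HepG2 and a rise of 0.65 in APOA4-KO. CTH had 1.18 (SE 0.18, adjusted p = 2.9e-05), and its rise in APOA4-KO, 0.26, did not pass the test alone (adjusted p = 0.096).

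Further members changed by different amounts without reaching 2-fold. To 48 h the difference was 0.94 for SLC7A1, 0.85 for SLC1A5, 0.78 for MTHFD2, 0.75 for CARS1, 0.62 for YARS1 and 0.40 for AARS1. WARS1 went the other way with -0.54 (SE 0.08, adjusted p = 1.6e-05), as did SESN2 with -0.47 (SE 0.09) and TRIB3 with -0.39 (SE 0.04). Of the members with the searched letters in their promoter, 9 of 14 tested were higher in APOA4-KO at 48 h and 2 lower. Their median log2 difference was 0.41. Without the letters, 10 of 20 were higher and 7 lower, with a median of 0.24. Over all tested genes, 23.5% were higher and 27.3% lower. The 8 members without a promoter to search were left out, and the difference between these groups of genes was not tested.

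The genes around the module were read from 6 other lists. Over all tested genes, 12.9% were higher in APOA4-KO and 17.6% lower before hypoxia, 23.6% higher and 24.6% lower after 24 h, and 23.5% higher and 27.3% lower after 48 h, and the counts of these lists stand beside them with no test. The list of eIF2 kinases and their partners had 15 tested genes, of which 1 was higher and 4 lower in APOA4-KO at 0 h, 4 higher and 5 lower at 24 h, and 6 higher and 6 lower at 48 h. Among the 4 kinases, EIF2AK2, the sensor of double-stranded RNA known as PKR, was higher by 0.20 at 0 h, 0.46 at 24 h and 0.19 at 48 h (adjusted p = 0.002, 8.2e-08 and 0.002). EIF2AK1, the heme-regulated kinase HRI, was higher by 0.32 at 24 h (adjusted p = 1.2e-08) and by 0.30 at 48 h (adjusted p = 2.5e-08). EIF2AK3, the sensor of the endoplasmic reticulum known as PERK, was higher by 0.41 at 24 h (adjusted p = 6.2e-04) and lower at 48 h, by a log2 difference of -0.23 (adjusted p = 0.032). EIF2AK4, the amino acid sensor GCN2, differed by 0.09 at 24 h (adjusted p = 0.056) and was higher by 0.18 at 48 h (adjusted p = 3.3e-04). On the FPKM scale at 48 h, EIF2AK4 overlapped between the lines, with 6.33 to 6.81 in HepG2 and 6.49 to 6.79 in APOA4-KO. EIF2AK2 overlapped too, with 3.06 to 3.25 and 3.19 to 3.34, while EIF2AK1 and EIF2AK3 did not. The kinases were not followed through the alternative runs, which covered the members. Calls in this list were below 2-fold.

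Of 12 other genes linked to ATF4, 0 were higher and 9 lower at 0 h, 5 higher and 6 lower at 24 h, and 7 higher and 3 lower at 48 h. INHBE, a liver-secreted activin subunit, was lower by 1.20 at 0 h and 1.07 at 24 h (log2 -1.20 and -1.07). ADM2, a peptide hormone, and JDP2, a partner of AP-1, were lower at 24 h, with -1.20 and -1.32. KLHL24, an adaptor of a ubiquitin ligase, was higher, with 15.2 to 18.2 CPM beside 7.35 to 8.18 at 24 h and 34.4 to 35 CPM beside 8.55 to 10.5 at 48 h. CEBPB, a liver C/EBP factor, was called higher at 48 h by 1.37 (SE 0.30, adjusted p = 6.6e-04), although its replicates spread from 17.6 to 37.6 CPM in APOA4-KO.

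Other synthetases were divided between the directions at 48 h. Of 12 other cytosolic synthetases and scaffold proteins, 2 were higher and 3 lower at 0 h, 4 higher and 6 lower at 24 h, and 4 higher and 6 lower at 48 h. VARS1, the valyl enzyme, was lower at 24 h by 1.03 (log2 -1.03, SE 0.03, adjusted p = 2.7e-15). Of 17 mitochondrial synthetases, 3 were higher and 6 lower at 0 h, 4 higher and 10 lower at 24 h, and 4 higher and 7 lower at 48 h, and NARS2 was the 1 past 2-fold, with 47.8 to 53.6 CPM beside 19.4 to 21.8 at 48 h (log2 1.28).

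Of 13 other enzymes of one-carbon and amino acid metabolism, 3 were higher and 4 lower at 0 h, 6 higher and 4 lower at 24 h, and 3 higher and 7 lower at 48 h. PYCR3, a cytosolic relative of PYCR1, was lower at 24 h by 1.57 and at 48 h by 2.28 (log2 -1.57 and -2.28), with 2.35 to 3.02 CPM beside 12.1 to 13.5 at 48 h. GOT1, the cytosolic aspartate aminotransferase, was higher at 48 h by 1.23 (SE 0.03, adjusted p = 6.3e-16). Of 17 other transporters, 15 were tested, with 3 higher and 4 lower at 0 h, 4 higher and 7 lower at 24 h, and 4 higher and 5 lower at 48 h. SLC7A2, a carrier of cationic amino acids, was higher by 1.10 at 24 h and 1.05 at 48 h, and SLC38A4 by 1.17 at 48 h. SLC7A7, the light chain of a cationic exchanger, was low, with 0.545 to 1.09 CPM beside 2.54 to 3.24 at 24 h. Its libraries were apart before hypoxia too, with 0.611 to 1.7 CPM in APOA4-KO beside 2.32 to 4.19 in HepG2 at 0 h. At 48 h they held 1.79 to 2.03 beside 2.26 to 2.75 CPM. SLC43A2, a carrier of large neutral amino acids, was lower at 24 h by 1.07 (log2 -1.07).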

How the data were processed

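Poly(A) RNA was sequenced as stranded (dUTP) libraries. The study's methods name the NEBNext Ultra RNA Library Prep Kit and do not state strand. For the deposited files, the authors used fastp (v0.23.1) for trimming, HISAT2 (v2.1.0) for alignment to the Ensembl GRCh38.p13 genome and, per the study's methods, featureCounts from subread (v2.0.2) for counting on genes. The submitters' processing notes name StringTie in that place, and which tool made the count table is not settled. The treatment of strand, of pairs and of reads with several alignments is not given in the sources used here. The authors deposited gene counts, not normalised between libraries, and FPKM values of the same libraries, that is counts per gene length and library total. Reads shared by overlapping genes or copies may be lost or split.

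Differences were tested on the counts by edgeR (4.0.16, R 4.3.3; filterByExpr on the 6 groups, TMM, quasi-likelihood fit with a coefficient for each group, Benjamini-Hochberg over 19743 genes) in 11 comparisons of the 18 libraries. CPM used the TMM-scaled totals. The test was checked on simulated counts. Alternatives used DESeq2 1.42.0 size factors, library size alone, no filter, the DESeq2 test, limma 3.58.1 on log2(FPKM + 1) of genes with an FPKM of at least 1 in 3 libraries, only the groups compared, a replicate block and each library left out. Total counts of 76481820 to 91604947 set the precision, and deposited counts need not be single read pairs.

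The members and gene lists were chosen with earlier results of these data known. All 43 members were accounted for. Values in every library were given for 16 members and for any other member among the 4 largest positive or the 4 largest negative log2 fold changes with an adjusted p under 0.05 between the lines, and genes of the other lists were named when past both limits between the lines. The 4 eIF2 kinases, AC079781.5 and CBSL were named after their values were seen. GENCODE release 29 (GRCh38) gave overlaps of exons, and RefSeq the promoters, of which 8 members had none in the table (EIF4EBP1, NUPR1, PSPH, SHMT2, PYCR1, SLC7A11, LARS1 and YARS1).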

Additional observations from a re-analysis of the deposited data

Results flagged for a closer look

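In 7 cases the change from 0 h differed between the lines by at least 2-fold, as tested by the difference itself with edgeR. At 24 h these were DDIT4, with a log2 difference of 1.19, and SLC6A9, with -1.34. At 48 h they were GDF15 with 3.00, PPP1R15A with 1.83, SLC38A2 with 1.71, ASNS with 1.51 and CTH with 1.18. For ASNS the lines changed in opposite directions, while SLC6A9 fell in both lines. DDIT4, SLC38A2 and PPP1R15A rose in APOA4-KO. In HepG2, SLC38A2 rose by 0.27 to 48 h, while DDIT4 to 24 h (0.04, adjusted p = 0.565) and PPP1R15A to 48 h (0.15, adjusted p = 0.062) did not pass the test. These differences kept their sign and stayed past the test in every alternative run. That of CTH spanned 0.71 to 1.29 over 19 refits and so did not always reach 2-fold.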

How the results depend on the processing

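Of 34 results of members past 2-fold, 33 kept their direction and an adjusted p under 0.05 in every refit. The exception was CHAC1 in HepG2 from 0 h to 48 h, kept in 4 of 12. The 2-fold limit was not kept by all of the 33 in every refit. The smallest sizes were 0.71 for CTH (difference of the changes to 48 h) and 0.76 for NUPR1 (APOA4-KO, 24 h to 48 h). Between the lines they were 0.85 for ASNS at 48 h, and -0.87 for SESN2 and -0.99 for SLC6A9 at 24 h. Scaling by library size alone moved the median of all genes at 48 h from -0.04 to -0.19 between the lines and from -0.07 to -0.23 in APOA4-KO, and that of the members between the lines from 0.29 to 0.14 (0.08 with limma on FPKM). With this scaling, and with limma on FPKM, which uses the same totals, the members that rose in HepG2 from 0 h to 48 h were 8 and 8 (5 with TMM), those that fell in APOA4-KO from 24 h to 48 h were 11 and 11 (6 with TMM), and those with a negative difference of the changes to 48 h were 14 and 14 (8 with TMM). With limma, 10 members rose in HepG2 from 24 h to 48 h (6 with TMM). Leaving out a library gave 5 to 8 members with a negative difference to 48 h, lowest without HepG2 0 h replicate 3.

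Signs turned under library size alone and limma for small values. Between the lines at 48 h these were PHGDH (-0.12 in both), SHMT2 (-0.09 in both) and EPRS1 (-0.13 and -0.12). In the difference of the changes to 48 h they were PSAT1 (-0.17), PHGDH (-0.07), ALDH18A1 (-0.01) and SLC7A5 (-0.16), alike in both. In APOA4-KO from 0 h to 48 h they were ALDH18A1, MARS1 (-0.13 and -0.12 for each), IARS1 (-0.14 and -0.12), YARS1 (-0.15 and -0.13) and NARS1 (-0.01). From 24 h to 48 h they were PSAT1 (-0.00) and SLC3A2 (-0.02) in APOA4-KO, ALDH18A1 (0.02) in HepG2, and TRIB3 (0.07) in HepG2 with limma. PYCR1 in HepG2 from 0 h to 24 h turned to -0.07. The cause was not tested.

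The labels give replicate numbers in each group, but same-numbered libraries deviated together with correlations of only -0.14 to 0.05, so the numbers were not read as pairs. With the replicate number as a block, 457 of 462 gene results kept their direction and call, 4 lost it and 1 gained it, and members with a negative difference to 48 h were 7.

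Counts of 3 or fewer in a library carry no comparison, which holds for FGF21, and CHAC1 is near that limit. Only 3 libraries per group were made, from 1 edited line, and without cells kept in 21% oxygen for 24 h or 48 h.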
